A study of Mus musculus with 14 samples.

Results

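Acly, Fasn, Scd1, Scd2 and Me1 encode enzymes of fatty acid synthesis and desaturation. They were taken as every probe set, apart from the Affymetrix controls, whose array annotation gives one of these symbols. That found 8 of 12422 probe sets, and 5 of the 8251 genes with a single symbol. Acly, Fasn and Me1 have 1 probe set each, Scd2 has 2 and Scd1 has 3.

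Their RNA was measured on 14 expression arrays, each from 1 sample of cerebellar cells of mice heterozygous for patched, the hedgehog receptor. The 3 groups were granule cell precursors (GCP) from mice aged 7 days (n = 4), preneoplastic cells, here called pretumor, from mice aged 6 weeks (n = 5), and tumor cells from mice aged 10 to 25 weeks with signs of medulloblastoma (n = 5). Every group carried the patched mutation, the line was kept by crossing to 129X1/SvJ, and no wild-type group was analysed here. Cells were freed with papain and DNase and collected between the 35% and 65% steps of a Percoll gradient, without flow sorting, so other cerebellar cells could be present. The labels also describe a Math1-GFP cross and tie it to no array. Age and stage cannot be told apart. The labels do not say whether arrays of a group stand for different animals. Each p-value therefore reflects the scatter among these particular samples, some of which may be technical.

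Fatty acids are built in the cytosol. ATP citrate lyase (Acly) cleaves citrate to acetyl-CoA, malic enzyme (Me1) yields NADPH, and fatty acid synthase (Fasn) uses both, with malonyl-CoA, to make palmitate. The stearoyl-CoA desaturases Scd1 and Scd2 then place a double bond in the chain, which gives the monounsaturated fatty acids of membranes, storage fat and myelin. In the mouse, Scd1 is known as the main form of liver and fat, and Scd2 as the main form of the brain. SREBP factors, made from Srebf1 and Srebf2, are known from the liver to switch on the members, and Srebf2 acts mostly on cholesterol synthesis.

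The 250 bases before the transcription start were found for 3 of the 5 members, Acly, Fasn and Me1, in a RefSeq promoter table of the build GRCm38.p6. They are shown because these are the control regions of the enzymes that supply the carbon, the reducing power and the chain that the desaturases modify. Each reads 5′ to 3′ on the gene's own strand, which is the minus strand for all 3. Acly lies at chr11:100528001-100528250, Fasn at chr11:120824548-120824797 and Me1 at chr9:86695915-86696164. Capitals mark GGGCGG or CCAAT on either strand.
Acly: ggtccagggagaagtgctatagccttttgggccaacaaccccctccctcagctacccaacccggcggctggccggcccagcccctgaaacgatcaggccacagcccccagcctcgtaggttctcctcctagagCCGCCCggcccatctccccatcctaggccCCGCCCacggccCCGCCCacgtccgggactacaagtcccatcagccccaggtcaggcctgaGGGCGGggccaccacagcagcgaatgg
Fasn: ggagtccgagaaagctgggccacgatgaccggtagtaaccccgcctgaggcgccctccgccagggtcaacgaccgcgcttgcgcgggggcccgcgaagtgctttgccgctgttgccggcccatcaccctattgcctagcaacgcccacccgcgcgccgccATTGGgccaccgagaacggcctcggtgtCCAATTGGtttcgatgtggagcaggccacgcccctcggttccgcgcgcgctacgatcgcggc
Me1: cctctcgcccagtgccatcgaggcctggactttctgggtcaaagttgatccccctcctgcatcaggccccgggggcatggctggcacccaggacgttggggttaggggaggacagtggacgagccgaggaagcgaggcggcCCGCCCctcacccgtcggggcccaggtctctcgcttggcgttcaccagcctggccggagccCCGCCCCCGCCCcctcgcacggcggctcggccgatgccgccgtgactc
GGGCGG, the core bound by Sp1, occurred 4 times before Acly and 3 times before Me1, and CCAAT, bound by NF-Y, 3 times before Fasn. The CCAAT matches of Fasn that begin 62 and 59 bases before the start lie on opposite strands and overlap. Of 32851 such windows in the table, 32.7% held GGGCGG and 33.8% held CCAAT. The sterol element TCACNCCAC (1.05% of windows) and the E-box CACGTG (6.02%) had 0 matches in these windows. A second listed start of Me1, at chr9:86687278-86687527, held 1 CCAAT. A match is a description of the letters and says nothing of binding in these cells.

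Among the members, the desaturase Scd2 was lower in tumor cells than in GCP by both of its probe sets, 1.80-fold and 1.40-fold. Scd1 gave low signal, with intensities below 16 by all of its probe sets in every sample. Acly differed between tumor and pretumor cells by a small margin, 1.22-fold, with the higher level in tumor cells. No difference of Fasn or Me1 between stages passed the test. In tumor minus GCP, 4 of the 8 member probe sets were called lower and 0 higher. Of all probe sets 4.6% were called there, 3.19% lower and 1.41% higher. In tumor minus pretumor, 2 were called lower and 1 higher, where 0.998% of all probe sets were called, 0.789% lower and 0.209% higher. Both lower calls there, and 2 of the 4 in tumor minus GCP, were Scd1 probe sets with intensities below 16 on every array. A floor of 16 therefore makes their differences 0.00. In pretumor minus GCP limma called 0 members, 1 had an unadjusted p under 0.05, and 4.36% of all probe sets were called, 2.69% lower and 1.67% higher. A call here is an adjusted p under 0.05 from limma, after Benjamini-Hochberg adjustment over the 12422 probe sets. The median log2 difference over the 8 member probe sets was -0.10 in pretumor minus GCP, -0.52 in tumor minus GCP and -0.29 in tumor minus pretumor, against -0.01, 0.00 and 0.01 over all probe sets.

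**Figure D1:**
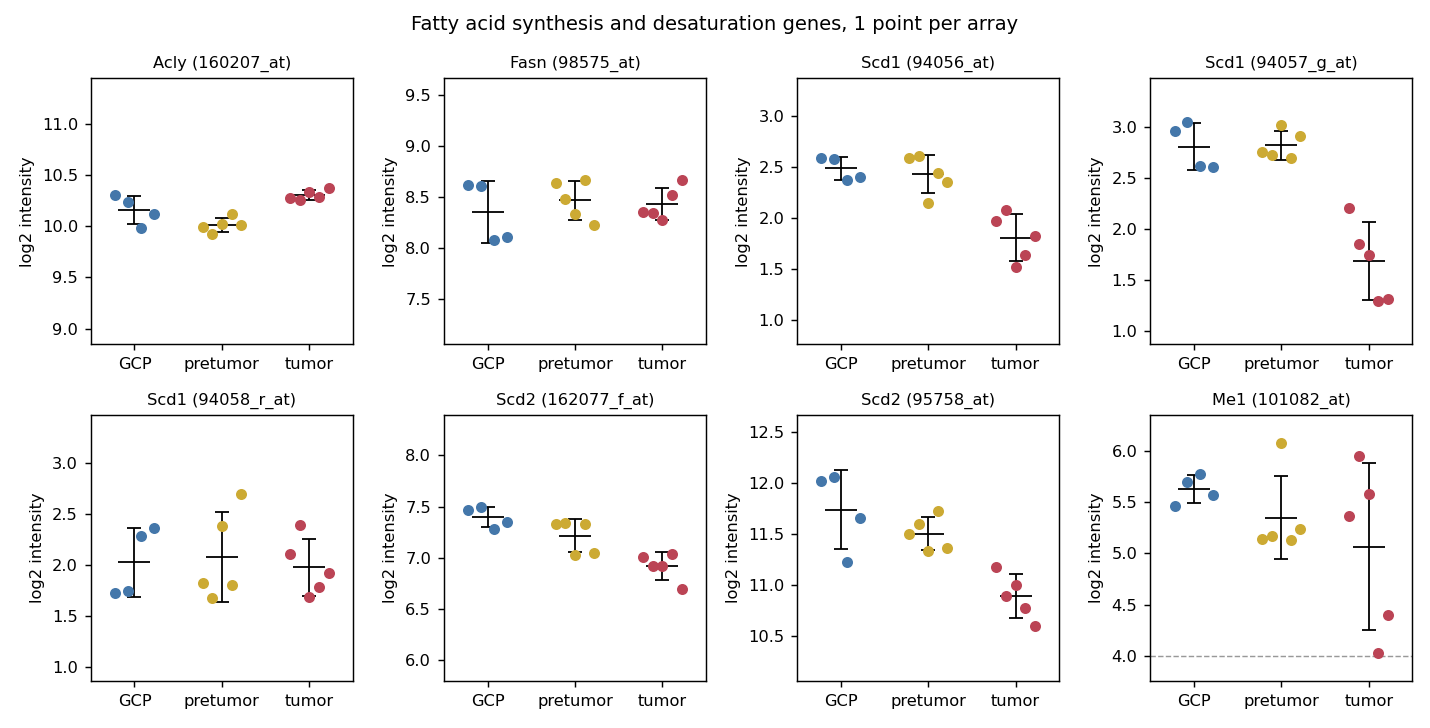
Log2 intensity of the 8 member probe sets, 1 point per array, in GCP (n = 4), pretumor (n = 5) and tumor (n = 5), with the group mean and SD as a bar. Each panel has its own levels but the same height in log2 units, and the dashed line marks an intensity of 16 where it falls in the panel. Both Scd2 panels place every tumor array below every GCP array, and the 3 Scd1 panels lie far below an intensity of 16.

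Intensities are linear, in the arbitrary units of the deposited table. Array medians were 4.11 to 4.39, and 70.5% of all values lie below 16. That limit was chosen after seeing the data. Values below it are taken here as near background, which was not measured, and where both group means lie there no fold is given. Of the 8 member probe sets, 5 reached 16 on every array and the 3 of Scd1 stayed below it on every array.

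Acly, the source of cytosolic acetyl-CoA, was high on all arrays. Its intensity was 1262, 1207, 1014 and 1113 in GCP samples, 1016, 970.4, 1040, 1109 and 1032 in pretumor, and 1240, 1222, 1289, 1251 and 1324 in tumor samples. Every tumor array lay above every pretumor array, while the GCP arrays overlapped both later stages. In log2 units Acly averaged 10.30 ± 0.05 in tumor and 10.01 ± 0.07 in pretumor samples (SD, n = 5 each), a difference of 0.29 (95% interval 0.17 to 0.41, adjusted p = 0.0286, limma). GCP averaged 10.16 ± 0.14 (SD, n = 4). In the order tumor, GCP, pretumor, neither neighbouring pair passed the test. Pretumor minus GCP was -0.15 (-0.28 to -0.02, adjusted p = 0.216) and tumor minus GCP was 0.14 (0.02 to 0.27, adjusted p = 0.242). The tumor against pretumor call was close to the threshold and ended, at an adjusted p of 0.0528 to 0.0787, when pretumor 1, 2 or 5 or tumor 1, 3, 4 or 5 was left out. Its size stayed between 0.27 and 0.32.

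Me1, a cytosolic source of NADPH, was the most variable member. Its intensity was 44.2, 51.9, 55.0 and 47.7 in GCP samples, 35.2, 36.0, 67.5, 35.1 and 37.7 in pretumor, and 41.4, 62.0, 47.9, 16.3 and 21.1 in tumor samples. All GCP arrays lay within the span of the other groups, pretumor 3 stood above its group, and tumor 4 and tumor 5 stood below theirs. The log2 mean was 5.63 ± 0.14 in GCP samples, 5.35 ± 0.41 in pretumor and 5.07 ± 0.82 in tumor samples. Its differences were -0.28 (-1.06 to 0.50) in pretumor minus GCP, -0.56 (-1.35 to 0.22) in tumor minus GCP and -0.28 (-1.02 to 0.45) in tumor minus pretumor. Their adjusted p was 0.841, 0.548 and 0.818 by limma. The interval of tumor minus GCP covers tumor levels from 0.393 to 1.16 times those of GCP.

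Fasn, which assembles palmitate, showed no called difference between stages. Its intensity was 393.2, 391.3, 270.8 and 276.0 in GCP samples, 397.8, 357.3, 322.2, 406.7 and 300.5 in pretumor, and 327.3, 325.2, 309.1, 366.9 and 406.1 in tumor samples. The 3 groups overlapped, and the lowest arrays were GCP 3 and GCP 4. The log2 means were 8.36 ± 0.30 in GCP samples, 8.47 ± 0.19 in pretumor and 8.43 ± 0.16 in tumor samples. Pretumor minus GCP was 0.11 (-0.19 to 0.42, adjusted p = 0.828, limma). Tumor minus GCP was 0.08 (-0.23 to 0.38, adjusted p = 0.936, limma). Tumor minus pretumor was -0.04 (-0.33 to 0.25, adjusted p = 0.973, limma). The interval of pretumor minus GCP reaches from 0.875 to 1.34 times the GCP level.

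Scd2, the brain form of the desaturase, was the member with the largest change at a well-measured level. Probe set 95758_at read 4142, 4259, 2405 and 3232 in GCP samples, 2907, 3094, 2583, 3386 and 2636 in pretumor, and 2311, 1905, 2048, 1758 and 1557 in tumor samples. All 5 tumor arrays lay below all 9 arrays of the other stages. Probe set 162077_f_at read 176.6, 180.3, 155.2 and 163.4 in GCP samples, 161.3, 161.5, 130.2, 160.4 and 132.4 in pretumor, and 128.9, 120.7, 121.0, 131.6 and 103.4 in tumor samples. Here all tumor arrays lay below all GCP arrays, and tumor 4 overlapped the pretumor range.

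By 95758_at, Scd2 fell to 10.89 ± 0.22 log2 units in tumor samples (SD, n = 5), against 11.74 ± 0.38 in GCP (SD, n = 4). The difference was -0.85 (-1.21 to -0.48, adjusted p = 0.0127, limma), a tumor level of 55.5% of that in GCP. By 162077_f_at it was -0.48 (-0.68 to -0.29, adjusted p = 0.00938, limma), a tumor level of 71.6%. Both calls held when any 1 array was left out. Pretumor samples lay between the other groups, at 11.51 ± 0.16 and 7.21 ± 0.16 by the 2 probe sets. Tumor minus pretumor was -0.61 (-0.96 to -0.27, adjusted p = 0.118) and -0.30 (-0.48 to -0.11, adjusted p = 0.16), neither of which passed. Pretumor minus GCP was -0.24 (adjusted p = 0.604) and -0.18 (adjusted p = 0.364), which did not pass either. In these bulk samples, fewer cells of a type and less RNA per cell cannot be told apart.

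**Figure D2:**
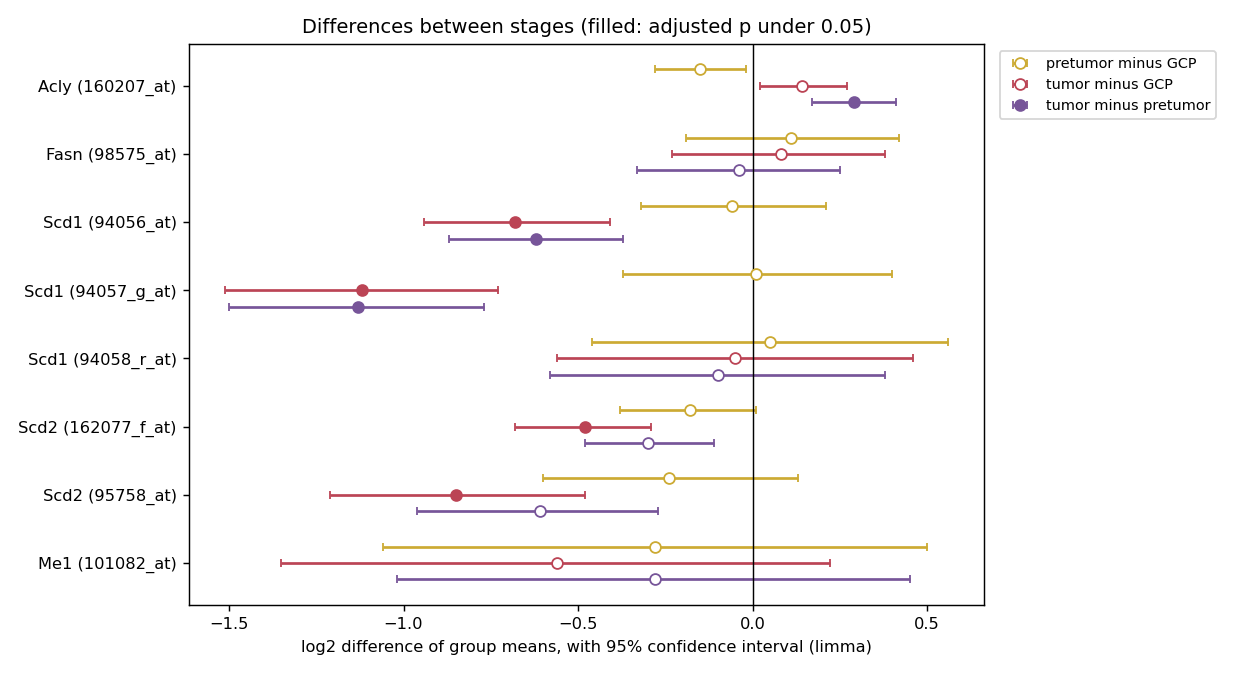
Log2 difference of group means for each member probe set, with its 95% confidence interval from limma, for the 3 comparisons. Filled points have an adjusted p under 0.05. The Scd2 intervals of tumor minus GCP lie wholly below 0, and the Fasn and Me1 intervals all cross 0.

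Scd1, the liver and fat form, gave low signal throughout. Probe set 94056_at read 5.18 to 5.99 in GCP samples, 4.44 to 6.07 in pretumor and 2.86 to 4.22 in tumor samples. Probe set 94057_g_at read 6.07 to 8.27 in GCP samples, 6.46 to 8.11 in pretumor and 1.95 to 4.62 in tumor samples, with 1 tumor array below the floor of 2.46. For both, every tumor array lay below every other array. The called log2 differences were -0.68 (adjusted p = 0.00763) and -1.12 (adjusted p = 0.00358) in tumor minus GCP, and -0.62 (adjusted p = 0.0278) and -1.13 (adjusted p = 0.00654) in tumor minus pretumor, by limma. The third probe set, 94058_r_at, read 3.20 to 6.47 over all arrays and had no called difference. The call of 94056_at in tumor minus pretumor ended without pretumor 1, 2 or 4 or tumor 4 or 5. With all values floored at 16 the Scd1 differences were 0.00, which was fixed in advance because every Scd1 value lies below 16. Scd1 and Scd2 are close paralogs, and whether the Scd1 probes or 162077_f_at also read the other gene was not tested.

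Both Scd2 probe sets followed each other, with r = 0.92 over the 14 arrays and r = 0.72 for deviations from the group means. Scd2 relative to Fasn and to Acly was compared within arrays. These 6 comparisons were chosen after the values were seen, so their p-values describe these arrays and support nothing independently. Only the change of such a ratio between stages can be read, because levels of different probe sets are not comparable. The log2 ratio of Scd2 (95758_at) to Fasn averaged 3.39 ± 0.17 in GCP samples, 3.04 ± 0.11 in pretumor and 2.46 ± 0.36 in tumor samples. It ran from 3.15 to 3.55 in GCP samples, 2.87 to 3.13 in pretumor and 1.94 to 2.82 in tumor samples, with no overlap between stages. That separation holds for 95758_at only. With 162077_f_at in its place, the GCP and pretumor ranges of the ratio to Fasn overlapped. The log2 ratio of Scd2 to Acly was 1.58 ± 0.25 in GCP samples, 1.49 ± 0.16 in pretumor and 0.59 ± 0.24 in tumor samples, and only the tumor arrays stood apart. By a two-sided exact permutation test the ratio to Fasn differed by -0.35 in pretumor minus GCP (p = 0.0159), -0.93 in tumor minus GCP (p = 0.0159) and -0.58 in tumor minus pretumor (p = 0.00794), each the smallest p the design allows. The ratio to Acly differed by -0.09 (p = 0.556), -0.99 (p = 0.0159) and -0.91 (p = 0.00794) by the same exact test. After Benjamini-Hochberg adjustment over the 6 exact tests, 5 had p = 0.0191 and the other p = 0.556. Over all settings tried, the difference of the ratio to Fasn ran from -1.02 to -0.56 in tumor minus GCP. In tumor minus pretumor it ran from -0.67 to -0.26.

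**Figure D3:**
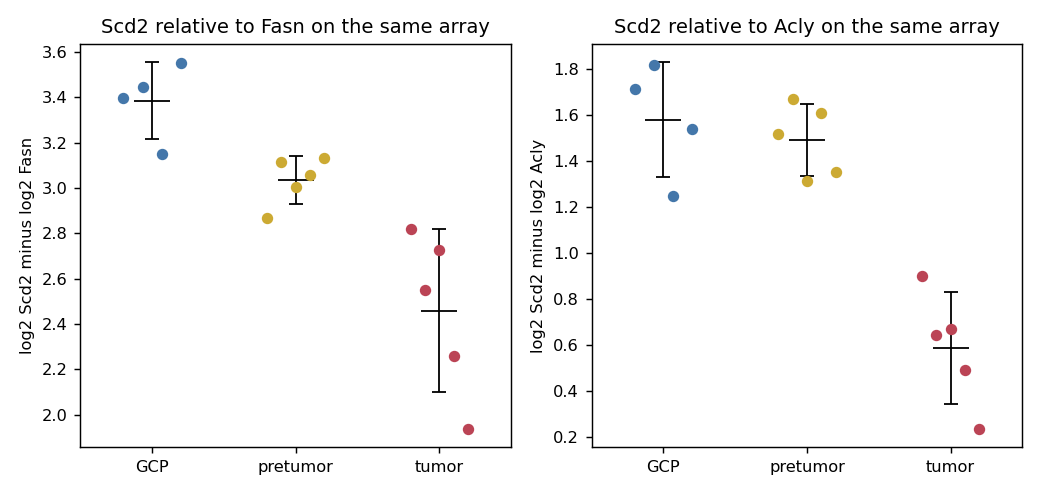
Log2 ratio of Scd2 (95758_at) to Fasn and to Acly on the same array, 1 point per array, with the mean and SD of GCP (n = 4), pretumor (n = 5) and tumor (n = 5). The log2 ratio to Fasn has 3 separate ranges by this probe set, and the log2 ratio to Acly is lower on every tumor array than on every other array.

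The GCP arrays fell into pairs for Scd2 and Fasn. GCP 1 and GCP 2 exceeded GCP 3 and GCP 4 by 1.51-fold for Scd2 (95758_at), 1.43-fold for Fasn and 1.16-fold for Acly. The log2 ratio of the 3′ to the 5′ Gapdh control probe sets, a measure tied to RNA quality, split the same way, at 0.46 and 0.56 in GCP 1 and GCP 2 and at -0.02 in GCP 3 and GCP 4. In pretumor samples it was 0.79, 1.08, 0.01, 0.85 and 0.19, and the arrays with the 3 highest ratios also had the 3 highest Fasn and Scd2 values of their group. Tumor samples ran from 0.15 to 0.42. The same ratio for the actin control probe sets was larger and did not split the GCP pairs. It was 4.02 and 4.27 in GCP 1 and GCP 2, and 3.96 and 4.18 in GCP 3 and GCP 4. In pretumor samples the actin ratio ran from 4.13 to 4.87, and in tumor samples from 3.93 to 4.85. The Gapdh ratio was added as a covariate after seeing the data. Scd2 in tumor minus GCP was then -0.88 (adjusted p = 0.00512) and -0.51 (adjusted p = 0.00085) by the 2 probe sets in limma. By 162077_f_at, pretumor minus GCP then passed, at -0.29 (adjusted p = 0.0299).

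Which GCP pair was used moved the member values. Without GCP 1 and GCP 2, Scd2 in tumor minus GCP was -0.55 (adjusted p = 0.146) and -0.40 (adjusted p = 0.128), and the calls ended. Without GCP 3 and GCP 4 it was -1.15 (adjusted p = 0.0034) and -0.56 (adjusted p = 0.039). Fasn in tumor minus GCP was 0.34 without GCP 1 and GCP 2 and -0.18 without GCP 3 and GCP 4, neither of which passed. Acly in tumor minus GCP passed without GCP 1 and GCP 2, at 0.25 (adjusted p = 0.0369), and Acly in pretumor minus GCP passed without GCP 3 and GCP 4, at -0.26 (adjusted p = 0.0331). With each GCP pair averaged to 1 value, Scd2 kept its size, -0.85 (adjusted p = 0.0563) and -0.48 (adjusted p = 0.0925), but was not called. All adjusted p-values here are from limma.

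**Figure D4:**
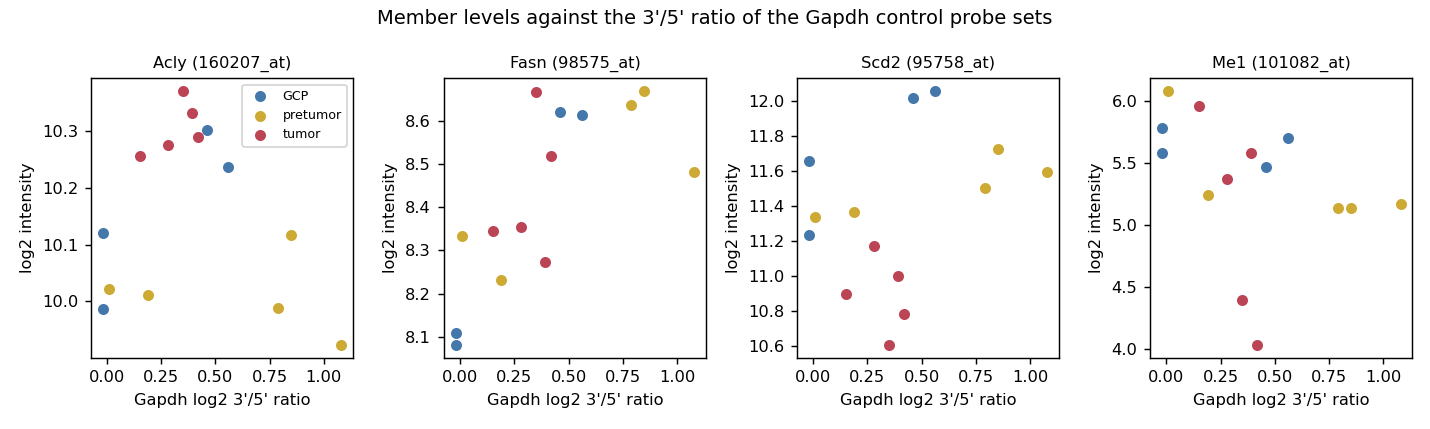
Log2 intensity of Acly, Fasn, Scd2 (95758_at) and Me1 against the log2 ratio of the 3′ to the 5′ Gapdh control probe sets, 1 point per array, coloured by stage. The 2 GCP arrays and the 3 pretumor arrays with the highest ratios have the highest Fasn and Scd2 levels of their group, and the 5 tumor arrays form the lowest Scd2 points at ratios of 0.15 to 0.42.

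Markers of other cells were set beside these values. Of 16 astrocyte and Bergmann glia markers 13 were measured, and 7 were called lower and 0 higher in tumor minus GCP. In that comparison 3.93% of all genes were called lower and 1.7% higher. In pretumor minus GCP 1 of the 13 was called higher and 1 lower, where 1.99% of all genes were higher and 3.25% lower. In tumor minus pretumor 0 were called higher and 4 lower, where 0.133% of all genes were higher and 0.957% lower. The summed intensity of the 13 markers ran from 11010 to 15100 in GCP samples, 2006 to 6281 in pretumor and 1121 to 2996 in tumor samples. On every array 2 of the 13 were below 16. Fabp7 alone gave 8354 to 11750 of the GCP sum. Of 20 markers of oligodendrocytes and their precursors 12 were measured, with 5 of the 12 below 16 on every array. Their sums were 280.5 to 420.6 in GCP samples, 790.8 to 1591 in pretumor and 163.8 to 311.4 in tumor samples. Limma called 5 of the 12 higher and 0 lower in pretumor minus GCP, where 1.99% of all genes were higher and 3.25% lower. In tumor minus GCP it called 0 higher and 1 lower. In tumor minus pretumor it called 0 higher and 6 lower, where 0.133% of all genes were higher and 0.957% lower. Some other lists, but not all, were lower in tumor than in GCP samples too. Of 14 measured endothelium and pericyte markers 6 were called lower, with sums of 58.5 to 82.4 in tumor and 121.3 to 163.8 in GCP samples, and 11 below 16 on every array. Of 4 red blood cell markers 2 were called lower, with sums of 16.5 to 391 in tumor and 1923 to 4374 in GCP samples, and 2 below 16 on every array. Of 13 meninges and choroid plexus markers 2 were called lower, with sums of 82.3 to 1334 in tumor and 1079 to 4229 in GCP samples, and 6 below 16 on every array. For Purkinje cells and interneurons, 3 of 11 measured markers were called lower and 6 were below 16 on every array. Their sums were 55.7 to 108 in tumor and 104.6 to 205 in GCP samples. The microglia and macrophage list went the other way. Among its 15 measured markers 2 were called higher, 0 lower, and 9 were below 16 on every array. Its sums were 757.8 to 2216 in tumor and 293.3 to 654.4 in GCP samples. For postmitotic granule neurons, 2 of 7 measured markers were called lower and 4 were below 16 on every array. Their sums overlapped, at 783.8 to 1666 in tumor and 626.8 to 1087 in GCP samples. The part of any of these markers in the Scd2 result was not tested. All 7 measured fat cell markers were below 16 on every array, with sums of 20.4 to 25.8. Of 14 granule cell precursor markers 13 were measured, with sums of 19180 to 23280 in GCP samples, 11980 to 18260 in pretumor and 13050 to 20100 in tumor samples. Of these 13, 2 were called lower in pretumor and 2 in tumor samples against GCP, and 0 higher. Over all genes 3.25% were called lower in pretumor and 3.93% in tumor samples. The granule lineage factor Pax6 averaged 10.54 log2 units in GCP samples, 8.80 in pretumor and 8.31 in tumor samples. Neurod1, of the same lineage, averaged 12.83, 11.45 and 11.58 in the same order, and Zic1 12.74, 12.59 and 12.64. The precursors' defining factor Atoh1 and the hedgehog effector Gli1 were below 16 on every array.

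The genes whose pattern over the 14 arrays was most like each member were picked by Pearson's r among 3125 genes, as a description. For Scd2 (95758_at) they were Hopx (r = 0.879), Gdf10 (r = 0.874), Id4 (r = 0.867) and Col5a2 (r = 0.866), and Hopx and Gdf10 are on the astrocyte and Bergmann glia list. Within groups these r were 0.49, 0.55, 0.47 and 0.60, lower than over all arrays. For Fasn they were Mfn1 (r = 0.915), Irf2bp1 (r = 0.911), Safb (r = 0.884) and Suds3 (r = 0.857), with r within groups of 0.93, 0.94, 0.89 and 0.85. For Fasn, r was thus about as high between arrays of 1 stage as over all stages. For Acly they were Fpgs (r = 0.847), Snx10 (r = 0.822), Hus1 (r = 0.777) and Tnpo1 (r = 0.723). Within groups these were lower, at 0.66, 0.41, 0.37 and 0.38. For Me1 they were Aldh9a1 (r = 0.885), Uqcrb (r = 0.884), Pttg1 (r = 0.875) and Slc31a1 (r = 0.872), and within groups 0.93, 0.88, 0.85 and 0.88. For Scd1 (94057_g_at, below 16 on every array) they were Hopx (r = 0.920), Bsg (r = 0.915), Plpp3 (r = 0.912) and Aldh2 (r = 0.908). Within groups these fell to 0.52, 0.67, 0.62 and 0.23.

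Genes around the members were counted over 6 lists with 112 measured genes. In pretumor minus GCP 14 (12.5%) were called lower and 0 higher, where 3.25% of all genes were called lower and 1.99% higher. In tumor minus GCP 17 (15.2%) were called lower and 0 higher, where 3.93% of all genes were lower and 1.7% higher. In tumor minus pretumor 2 (1.79%) were called lower and 0 higher, where 0.957% of all genes were lower and 0.133% higher. These lists were chosen with earlier results of the same arrays known. Of the 112 genes 56 had a group mean above 16, while 3872 of all 12422 probe sets had one of at least 16. With only such probe sets tested, limma called 466, 508 and 115 of the 3872 in the same order of comparisons, in either direction. Of the 56 related genes it called 11, 17 and 3. The percentages of all genes given above are therefore not a background of like signal level for these lists.

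Upstream of the members, the list for precursor and NADPH supply had 16 measured genes, of which 4 fell in pretumor and 3 in tumor samples, both against GCP. Idh1, which makes NADPH in the cytosol from isocitrate, ran from 305.1 to 388.3 in GCP samples, 122.7 to 176.4 in pretumor and 123.2 to 215.3 in tumor samples. The later stages did not overlap GCP. Its log2 difference was -1.31 (2.47-fold, adjusted p = 0.000758) in pretumor and -1.12 (2.17-fold, adjusted p = 0.00168) in tumor samples, by limma. Taldo1, of the pentose phosphate pathway, fell by 0.47 (adjusted p = 0.024) in pretumor and by 0.62 (adjusted p = 0.00487) in tumor samples. Cs, which makes citrate, fell by 0.36 (adjusted p = 0.0456) in pretumor samples. Pdk3, a kinase that restrains pyruvate dehydrogenase, fell by 0.48 there (adjusted p = 0.0455). Of the 14 runs that left out 1 array, 12 ended the call of Cs, 11 that of Pdk3 and, in pretumor minus GCP, 5 that of Taldo1 (without GCP 2, 3 or 4 or pretumor 1 or 2). Acss1, a mitochondrial acetyl-CoA synthetase, was called lower in tumor minus GCP with both group means below 16.

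Downstream of palmitate, limma called 0 of the 12 measured elongation and desaturation genes in any comparison, while 2, 4 and 2 had an unadjusted p under 0.05 in the comparisons of pretumor with GCP, tumor with GCP and tumor with pretumor. Elovl6, which extends palmitate to stearate, differed by -0.05 in pretumor and -0.04 in tumor samples against GCP. Elovl5, an elongase of polyunsaturated chains, was 1314 to 1515 in pretumor and 923.5 to 1229 in GCP samples without overlap, a difference of 0.33 that did not pass (adjusted p = 0.186). Fads1, another desaturase, averaged 3.84 ± 0.15 log2 units in tumor and 4.21 ± 0.13 in GCP samples. The difference of -0.37 did not pass (adjusted p = 0.144). Fads1 lay near the limit of 16, with GCP arrays at 16.84 to 20, a tumor mean below 16 and 1 of 5 tumor arrays reaching it. In tumor minus pretumor Fads1 was called without pretumor 3.

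Of 23 measured regulators, limma called 0, while 4, 3 and 1 had an unadjusted p under 0.05 in the same 3 comparisons. Srebf1, which encodes the SREBP factor of fatty acid synthesis, read 92.7, 114.5, 58.0 and 66.4 in GCP samples, 308.1, 269.3, 97.8, 153.7 and 223.6 in pretumor, and 513.6, 252.0, 38.4, 305.6 and 241.2 in tumor samples. Most arrays of the later stages were higher than GCP, but pretumor 3 lay within the GCP range and tumor 3 below it. The log2 difference was 1.28 (adjusted p = 0.367) in pretumor and 1.36 (adjusted p = 0.333) in tumor samples. Without tumor 3, the tumor difference was 1.97 and was called (adjusted p = 0.0128, limma). Mid1ip1, known to promote the activity of acetyl-CoA carboxylase, differed by -0.70 in tumor minus pretumor (adjusted p = 0.0745), and was called without pretumor 5 or tumor 3. Insig1 was below 16. Srebf2, Acaca, Fads2 and Scd3 were not analysed here.

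Of the 112 related genes, the fatty acid carrier Fabp7 had the largest log2 differences against GCP, -3.45 in pretumor and -3.84 in tumor samples. Fabp7, the brain fatty acid binding protein and also an astrocyte marker here, ran from 8354 to 11750 in GCP samples, 586.6 to 1194 in pretumor and 351.8 to 1539 in tumor samples. It fell 11-fold (adjusted p = 0.000389) in pretumor and 14.3-fold (adjusted p = 0.000108) in tumor samples. Dbi, the acyl-CoA binding protein, ran from 401.9 to 1345 in tumor and 1457 to 2145 in GCP samples, and fell 2.72-fold (adjusted p = 0.0264). Fabp3 fell at least 1.60-fold in tumor samples (adjusted p = 0.0473), with its tumor mean below 16. Agpat3, an acyltransferase, and Plin2, a lipid droplet coat protein, were called lower with all arrays below 16. In this list of 26 measured genes, 2 fell in pretumor and 5 in tumor samples against GCP, and 1 in tumor minus pretumor. Of 19 oxidation genes 1, 2 and 1 fell in the same comparisons. Acaa2, a thiolase of the mitochondrial cycle, fell by 0.70 in tumor minus GCP (adjusted p = 0.0418), and Hadhb, of the trifunctional protein, fell by 0.40 in tumor minus pretumor (adjusted p = 0.0304). Acads was called lower against GCP with all arrays below 16. Leaving out 1 array ended the calls of Fabp3 and Acaa2 in 11 of 14 runs each, of Dbi in 6 (GCP 1, 2 or 4 or tumor 1, 4 or 5) and of Hadhb in 6 (GCP 2, pretumor 1, 2 or 5, or tumor 2 or 5). The calls of Plin2 ended in 9 runs in tumor minus GCP and in 12 in tumor minus pretumor. In tumor minus GCP the call of Agpat3 ended without GCP 1, 3 or 4 or tumor 1 or 4, and that of Acads without GCP 1, 2 or 3 or tumor 1. The call of Acads in pretumor minus GCP ended without GCP 3.

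Cholesterol synthesis, the other SREBP-driven pathway, had 7 of 16 measured genes lower in pretumor and 7 lower in tumor samples against GCP. The median log2 difference of the list was -0.82 and -0.87. Msmo1, a sterol demethylation enzyme, ran from 225.3 to 417.3 in GCP samples, 83.5 to 129.0 in pretumor and 48.4 to 89.1 in tumor samples. It was 2.81-fold lower in pretumor and 4.66-fold lower in tumor samples than in GCP. Hmgcs1, Idi1, Fdps, Fdft1, Nsdhl and Tm7sf2 were the others called in pretumor samples, at log2 differences from -1.73 to -0.55. In tumor samples Mvd, with both group means below 16, was called in place of Tm7sf2. In pretumor minus GCP the call of Idi1 ended without GCP 1, 2 or 4 or pretumor 2, and that of Tm7sf2 without any 1 GCP array or pretumor 2. In tumor minus GCP the call of Mvd ended without GCP 1 or 2 or tumor 1 or 2. Acly and Fasn, in contrast, had no called difference against GCP, and whether they differ from the cholesterol genes was not tested.

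**Figure D5:**
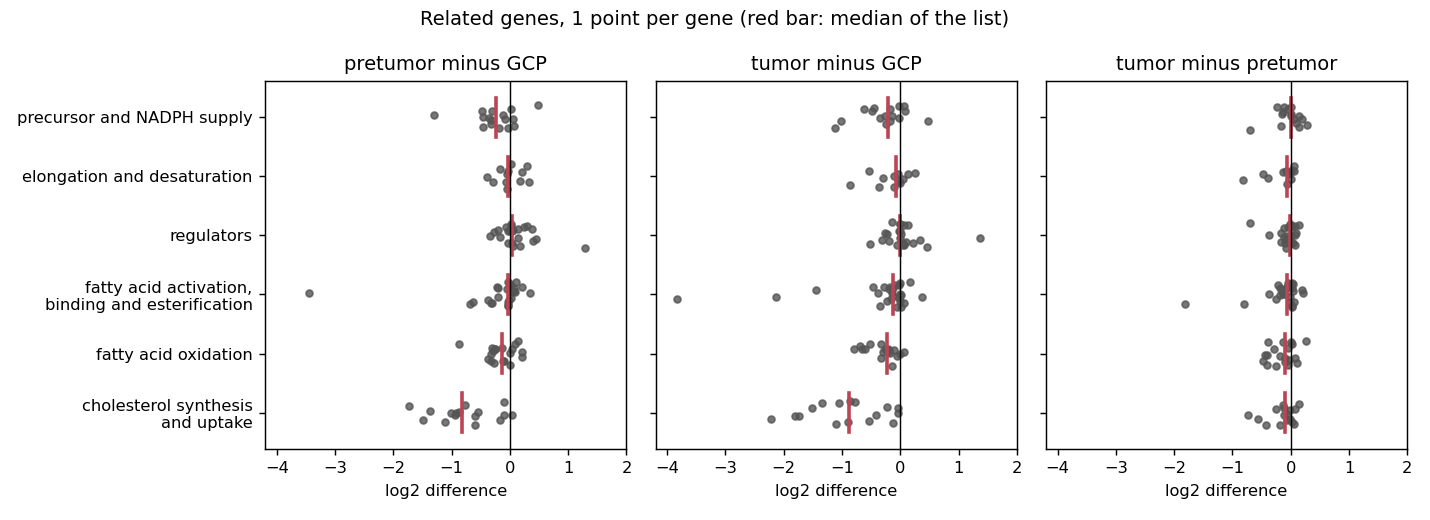
Log2 difference of each related gene, 1 point per gene, by list, for the 3 comparisons between stages. Red bars are list medians. The cholesterol list has medians of -0.82 and -0.87 against GCP, and the elongation and regulator lists have medians close to 0, with single genes such as Srebf1 further out.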

How the data were processed

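RNA of 14 samples was measured on 1 expression array each. The deposited table holds 1 linear intensity per probe set and array, made by the authors. How they were summarised and normalized: not given in the sources used here. Array medians lay within 0.094 log2 units (limit 0.2), so no further normalization was applied. The 66 control probe sets were set aside, leaving 12422, with 10833 of 1 symbol, 396 of several and 1193 of none. Of the single symbols, 10817 matched a gene table by Entrez ID and 0 needed an update. Values were floored at their 10th percentile, 2.46, and taken to log2. A model with 3 group means and no covariate was fitted with limma 3.58.1 in R 4.3.3 (11 residual and 0.83 prior degrees of freedom), with two-sided p-values and Benjamini-Hochberg adjustment. The code was tested on simulated data.

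The 5 members, the gene lists and the marker lists were chosen with earlier results of these data known. The named genes were all member probe sets, each related gene called in any comparison, 9 genes fixed by name where on the array, and the 4 genes most like each member; Mid1ip1 is the regulator with the highest mean. A related gene is represented by its probe set with the highest mean. Where 1 group mean lies below 16, a fold is given against 16 as "at least". Alternatives changed the floor, pseudocount, scaling, array weights, arrays used, prior and block. The replicate numbers gave no clear sign of pairing the arrays, so the block is an alternative only. For arrays there is no read depth, and their number limits the precision.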

Additional observations from a re-analysis of the deposited data

Results flagged for a closer look

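A sample far from the rest of its group was looked for in 105 groups of 4 or 5 arrays, over the members and the named related genes, and 6 were found by Dixon's test; chance alone gives about 1 in 20. Among the members, Me1 read 67.5 in pretumor 3 and 35.1 to 37.7 in the other pretumor arrays. Acss1 read 7.95 in tumor 2 and 5.70 to 6.16 in the other tumor arrays. Pdk3 read 212.3 in pretumor 5 and 279.8 to 310.2 in the others of its group. Fads1 read 17.2 in tumor 5, against 13.3 to 13.9. Plin2 read 4.25 in pretumor 4, against 4.89 to 5.09. Hmgcs1 read 2060 in GCP 2, against 1724 to 1773.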

How the results depend on the processing

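Over 711 repeats of the member differences under other settings, 669 stayed on their side of the threshold, 33 lost a call, 9 gained one and 0 changed sign as a call. Most of these repeats were of differences not called, which cannot lose a call. In tumor minus pretumor, Acly lost its call in 7 of 14 leave-out runs and 5 of 16 other settings. Scd1 (94056_at) lost its call there in 5 of 14 and 5 of 15. In tumor minus GCP, Scd2 (95758_at) lost its call in 0 of 14 and 3 of 16. In the order pretumor minus GCP, tumor minus GCP, tumor minus pretumor, the numbers of all probe sets called (541, 571 and 124) became 194, 232 and 32 with a floor of 16, 1508, 998 and 393 with array weights, and 168, 198 and 69 with each GCP pair averaged. Without GCP 1 and GCP 2 they were 298, 310 and 70, and without GCP 3 and GCP 4 they were 203, 215 and 76. With the compared groups fitted alone, tumor minus GCP gave 335 and tumor minus pretumor 50. The related genes called (14, 17 and 2) became 8, 10 and 0 with the floor of 16, 30, 28 and 6 with array weights, 7, 8 and 0 with GCP pairs averaged, and 7, 9 and 0 without GCP 1 and GCP 2. Without GCP 3 and GCP 4, tumor minus GCP gave 11 and tumor minus pretumor 0, and the groups fitted alone gave the same 11 and 0. In tumor minus pretumor 1 related gene was called with log2 of value plus 16, with no floor, with the eBayes trend and with the Gapdh covariate, and 0 without pretumor 3 and tumor 2.

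Member calls in tumor minus GCP ended as follows. Scd1 was 0.00 by 94056_at and 94057_g_at with the floor of 16, which lies above all Scd1 values and so fixes that outcome. By 94056_at it was -0.68 (adjusted p = 0.0891, limma here and below) with GCP pairs averaged. Without GCP 1 and GCP 2 it was -0.58 (0.106) by 94056_at and -0.92 (0.0646) by 94057_g_at. Scd2 was -0.85 (0.0563) and -0.48 (0.0925) with GCP pairs averaged, -0.55 (0.146) and -0.40 (0.128) without GCP 1 and GCP 2, and -0.85 (0.0684) by 95758_at with the groups fitted alone. Acly gained a call without GCP 1 and GCP 2, at 0.25. In pretumor minus GCP, calls were gained by Acly without GCP 3 and GCP 4, at -0.26, and by Scd2 (162077_f_at) with the Gapdh covariate, at -0.29. In tumor minus pretumor, Scd1 was 0.00 with the floor of 16, and by 94056_at -0.62 and not called with GCP pairs averaged, the groups fitted alone or either GCP pair left out. Acly lost its call there at 0.28 (0.0721) with quantile normalization, 0.29 with the floor of 16 (0.0829) and with only probe sets reaching 16 (0.105), and 0.31 (0.0758) without pretumor 3 and tumor 2. Scd2 gained one at -0.77 and -0.37 with array weights and at -0.61 (95758_at) without GCP 3 and GCP 4. The causes of these changes were not tested. The runs without a GCP pair, those with the Gapdh covariate and all those of the Scd2 ratios were chosen after seeing the data.

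Leaving out each array in turn gave 331 to 624, 338 to 709 and 70 to 148 probe sets and 9 to 13, 10 to 21 and 0 to 3 related genes called. Acly ran from -0.21 to -0.10 in pretumor minus GCP, called only without GCP 3, and from 0.27 to 0.32 in tumor minus pretumor. There Scd1 (94056_at) ran from -0.69 to -0.55, its call ending without pretumor 1, 2 or 4 or tumor 4 or 5, and Scd2 (95758_at) from -0.68 to -0.54, called only without GCP 3.

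The arrays with the same number did not deviate together as a rule. Of 13 such pairs 5 had r above 0.1 (range -0.32 to 0.57), against -0.53 to 0.50 for different numbers. The highest r, 0.567, was that of GCP 3 and pretumor 3. These values gave no clear sign that the numbers pair the arrays, but cannot exclude it, because arrays of different numbers also deviated together. With the replicate number as a block, tumor minus pretumor had 76 probe sets and 0 related genes called, Acly lost its call at 0.29 (0.119) and Scd2 (162077_f_at) gained one at -0.30 (0.0471), and no other member call changed.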
